A study of Mus musculus with 10 samples.

Results

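The genes described here are 38 mouse genes that type I interferon is known to induce, from the Ifit, Oas and Mx families to the transcription factors that drive them. They were taken by symbol from a list of known interferon-stimulated genes drawn up with earlier results of these data known, and all 38 were found among the 54343 genes of the deposited expression table. RNA from cultured cells was sequenced in 5 libraries of MC38.T4 and 5 libraries of its parental line MC38, a mouse tumour line. MC38 cells (genotype label: wild type) came from a vendor. MC38.T4 (genotype label: low mesothelin expression) descends from a sorted MC38 clone that carried a human mesothelin plasmid. That clone was grown as a tumour in C57/BL6 mice, the tumour was returned to culture, and MC38.T4 was founded there from a single clone with little mesothelin. MC38.T4 thus stands for 1 clone, and transfection, passage through a mouse and cloning cannot be told apart as sources of a difference. Both lines grew in RPMI1640 with fetal bovine serum, and the labels name no interferon or other stimulus. Whether the 5 libraries of a line are separate cultures is not in the labels. The p-values therefore reflect the spread among these libraries alone, which may be technical. The series title is concerned with SSBP4, cholesterol synthesis and immune evasion, and the comparison here asks how the interferon-stimulated genes of the tumour-derived clone stand against those of its parent.

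Type I interferons are secreted proteins that bind the receptor IFNAR1/IFNAR2, whose kinases JAK1 and TYK2 phosphorylate STAT proteins. These join IRF9 in the complex ISGF3, which binds a DNA element called the interferon-stimulated response element and turns on a large set of genes. Their products detect viral nucleic acid, block translation, degrade RNA, restrict virus assembly or feed back on the pathway. Many tumour cells express part of this set in culture without added interferon.

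Levels are the FPKM that the authors deposited, that is, fragments scaled to gene length and to sequencing depth, so levels of different genes are per length. FPKM summed to between 478019 and 484460 in MC38.T4 libraries and between 442183 and 477015 in MC38 libraries. The sources used here give no read totals, and the size of single-read steps among low values gave relative depths from 0.874 to 1.14, with MC38 replicate 1 set to 1. Pairs of libraries correlated across genes at 0.993 to 0.998 in the same line and at 0.896 to 0.904 across the lines, and none held identical values. The tissue label is melanoma and the protocol text speaks of colon cancer. Of 7 melanocyte markers 1, Mitf, reached the expression filter, and only through MC38.T4 (mean 1.74 FPKM, against 0.781 FPKM in MC38). Tyr was listed at 0 in every library, and none of 10 colon epithelium markers reached the filter, with Cdx2 at 0. The colon epithelium markers summed to 1.13 to 1.47 FPKM in MC38.T4 and 0.0567 to 0.146 FPKM in MC38. Cdh1 averaged 1.00 FPKM in MC38.T4 and 0.0212 FPKM in MC38. Markers of immune cells were scarce. The summed FPKM of 8 macrophage and monocyte markers was 1.94 to 3.32 in MC38.T4 and 3.56 to 4.46 in MC38, that of 8 T and NK cell markers 2.55 to 3.44 and 2.88 to 3.14, and Adgre1, Cd3e, Cd8a, Ncr1 and Siglech were listed at 0 throughout. Of 7 plasmacytoid dendritic cell markers only Bst2, itself among the genes described, and Tcf4 reached the filter. The sum of 6 endothelial markers was 0.920 to 1.18 in MC38.T4 and 0.441 to 0.565 in MC38. Of 10 fibroblast and pericyte markers the 6 at the filter were higher in MC38.T4, of which Col1a2, Pdgfrb and Acta2 reached it only through MC38.T4. Col1a1, Lum and Fap were below it and Thy1 was at 0. The summed FPKM was 352 to 358 in MC38.T4 and 34.8 to 37.9 in MC38. Most of the MC38.T4 sum was Col3a1, with means of 247 FPKM in MC38.T4 and 6.44 FPKM in MC38. The part of these markers in the results was not tested.

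Most of the interferon-stimulated genes were higher in MC38.T4. Of the 38 genes, 34 rose, 2 fell (Trim25 and Bst2) and 2 did not pass the test (Adar and Irf9). A change is the log2(FPKM + 1) of MC38.T4 less that of MC38, which understates changes of low genes, and a gene passed at a Benjamini-Hochberg adjusted p under 0.05 from limma fitted over 11110 genes. Of all tested genes 86.0% passed, with 43.1% of all tested genes higher and 42.9% lower in MC38.T4, so a call by itself says little here and the direction and size carry the description. The median change of the 38 genes was 1.21 on the log2 scale, against 0.00077 over all tested genes. A rise of at least 2-fold was found for 21 of the 38 genes, against 10.0% of all tested genes. Neither gene that fell did so by 2-fold, a size reached by 7.14% of all tested genes. Every MC38.T4 library lay above every MC38 library for 33 of the 38 genes (38.4% of all tested genes), every MC38.T4 library lay below for 2 (38.9%), and the lines overlapped for Adar, Irf9 and Mx2. All 38 genes passed the filter of at least 1 FPKM in at least 5 libraries. For 6 of them (Ifit3b, Oas2, Oasl1, Zbp1, Mx1 and Cmpk2) the MC38 mean was under 1 FPKM, so they passed the filter only through MC38.T4 and had to differ. Among the other 32 genes 28 rose, 2 fell and 15 were at least 2-fold higher, with a median change of 0.88. Of the 10655 tested genes with an MC38 mean of at least 1 FPKM, 4348 (40.8%) rose and 881 were at least 2-fold higher, with a median change of -0.03. Against a fold of 1.5, 24 of the 38 genes were higher and 1 was lower, with Ifit2, Oas1a, Ifih1, Eif2ak2, Stat2, Isg15, Mx2, Isg20, Ifi27, Xaf1 and Bst2 no longer passing. In bulk RNA a larger share of cells that express a gene and more RNA per cell cannot be told apart.

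**Figure D1:**
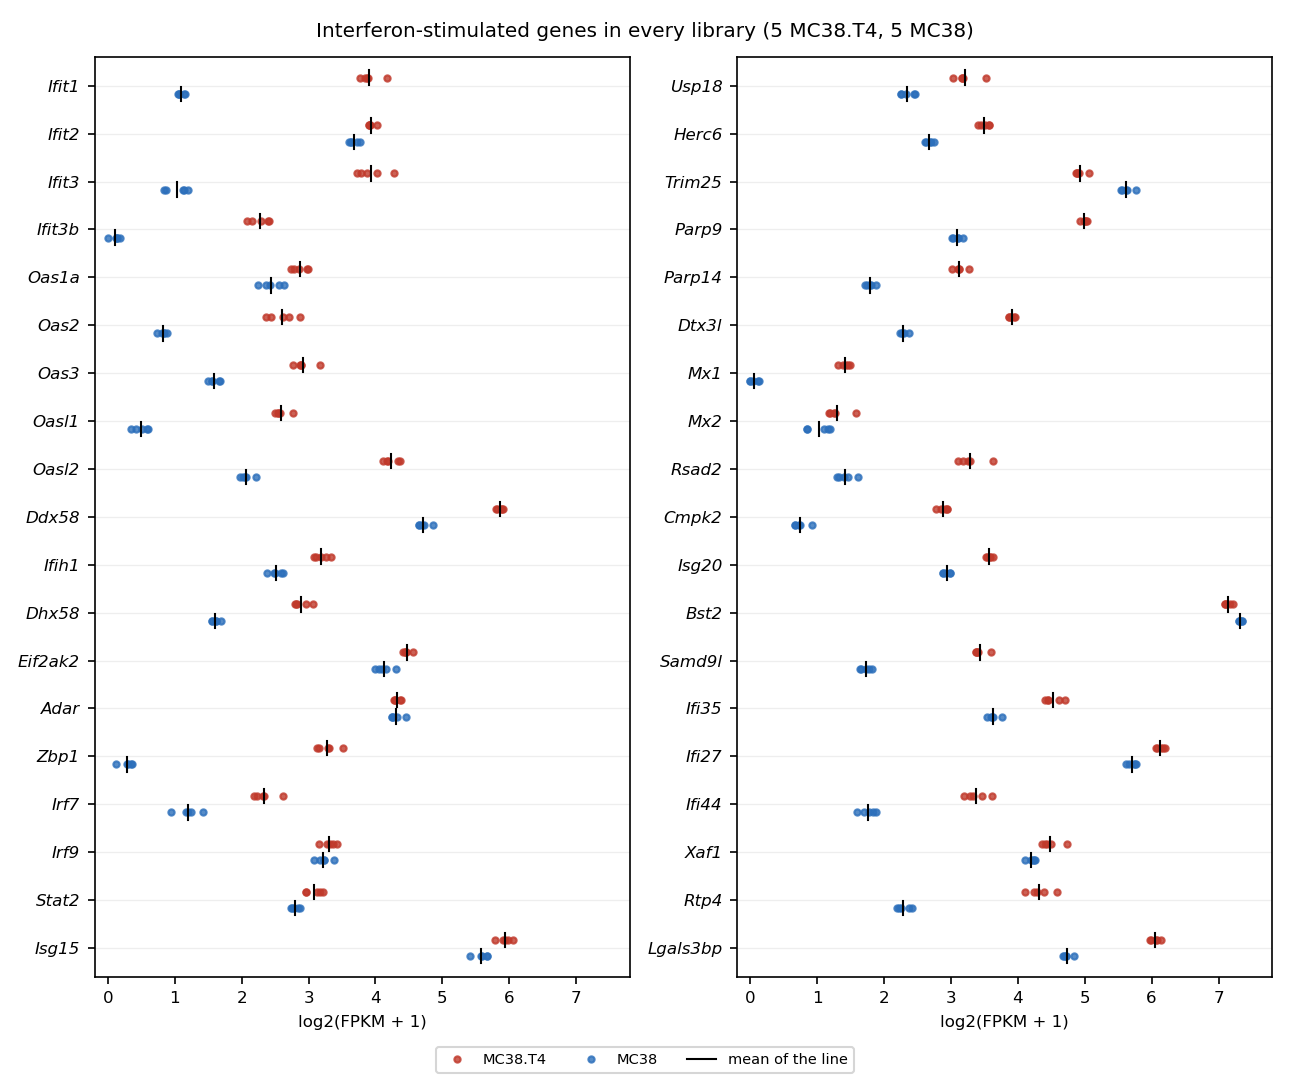
Level of each of the 38 genes as log2(FPKM + 1) on the x axis in every library, with MC38.T4 (red) above MC38 (blue) within a row and a black bar at the mean of the line (n = 5 each). The red and blue points separate with red to the right for 33 genes, separate with red to the left for Trim25 and Bst2, and overlap for Adar, Irf9 and Mx2.

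The promoters of 4 genes with large rises, chosen among those that hold the response element, and of both genes that fell are shown. Promoter windows from RefSeq (build GRCm38.p6, 250 bases before to 50 bases after the start) were found for 28 of the 38 genes and were searched on both strands for GAAA followed by any 2 bases and GAAA again, the core of the interferon-stimulated response element. On the other strand it reads TTTC, any 2 bases and TTTC. The core was present for 12 of the 28 genes (42.9%), against 3.99% of the 27025 genes in the promoter table and 3.64% of its tested genes. TTCNNNGAA, the gamma-activated sequence, was present for 7 of the 28 (25.0%), against 9.55% of genes in the table. The windows below are those of the 4 genes with the largest rises among genes that hold the core, then those of Trim25 and Bst2, each 5′ to 3′ along the gene with matches to the core in capitals.
Ifit3 (chr19:34583279-34583578, plus strand): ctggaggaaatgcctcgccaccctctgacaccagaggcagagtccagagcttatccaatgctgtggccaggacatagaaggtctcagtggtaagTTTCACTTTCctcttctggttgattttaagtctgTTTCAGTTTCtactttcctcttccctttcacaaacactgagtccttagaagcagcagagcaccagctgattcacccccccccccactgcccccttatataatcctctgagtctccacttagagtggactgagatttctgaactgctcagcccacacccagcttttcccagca
Ifit1 (chr19:34640639-34640938, plus strand): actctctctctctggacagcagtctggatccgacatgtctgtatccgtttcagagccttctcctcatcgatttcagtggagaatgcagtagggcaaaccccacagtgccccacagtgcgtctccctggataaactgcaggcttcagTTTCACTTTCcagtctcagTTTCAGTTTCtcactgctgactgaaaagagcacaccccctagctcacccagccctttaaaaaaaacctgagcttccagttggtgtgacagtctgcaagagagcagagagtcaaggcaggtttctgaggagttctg
Ifit3b (chr19:34607707-34608006, plus strand): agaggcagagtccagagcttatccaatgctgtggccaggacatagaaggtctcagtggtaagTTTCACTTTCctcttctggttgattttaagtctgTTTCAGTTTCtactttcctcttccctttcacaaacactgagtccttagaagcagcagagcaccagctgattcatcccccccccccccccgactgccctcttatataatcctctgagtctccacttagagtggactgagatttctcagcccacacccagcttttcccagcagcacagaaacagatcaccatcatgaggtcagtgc
Rsad2 (chr12:26456403-26456702, minus strand): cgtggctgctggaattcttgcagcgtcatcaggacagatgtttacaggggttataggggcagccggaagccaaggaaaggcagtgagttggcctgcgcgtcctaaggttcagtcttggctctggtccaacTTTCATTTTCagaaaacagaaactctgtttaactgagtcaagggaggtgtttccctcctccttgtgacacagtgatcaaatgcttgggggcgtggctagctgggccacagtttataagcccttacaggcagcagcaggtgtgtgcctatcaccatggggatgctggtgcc
Trim25 (chr11:88999153-88999452, plus strand): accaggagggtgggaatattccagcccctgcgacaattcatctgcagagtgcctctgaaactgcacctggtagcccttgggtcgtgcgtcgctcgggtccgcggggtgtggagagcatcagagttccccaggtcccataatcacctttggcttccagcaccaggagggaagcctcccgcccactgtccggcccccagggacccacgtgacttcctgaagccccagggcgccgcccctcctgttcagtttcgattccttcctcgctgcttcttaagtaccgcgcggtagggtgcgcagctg
Bst2 (chr8:71537423-71537722, minus strand): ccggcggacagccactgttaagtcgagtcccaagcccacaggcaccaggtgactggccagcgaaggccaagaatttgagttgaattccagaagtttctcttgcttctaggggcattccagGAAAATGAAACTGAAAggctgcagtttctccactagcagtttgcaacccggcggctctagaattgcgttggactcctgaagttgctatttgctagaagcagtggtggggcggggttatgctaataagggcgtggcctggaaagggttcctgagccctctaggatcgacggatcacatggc

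Ifit3 and Ifit3b each carried a pair of cores that begin 34 bases apart, and their windows shared an unbroken run of 169 bases. The pair in Ifit1 began at positions -104 and -85 from the start, and the single core of Rsad2 at -120. Bst2, which fell, held a pair of overlapping cores that began at -130 and -124. Trim25, which fell more, held none in its window. Genes with and without the core overlapped in how they changed, with median changes of 0.91 and 1.02. Of the 12 genes with it 11 rose and 1 fell, with changes from -0.19 to 2.91, and of the 16 genes whose windows lacked it 13 rose, 1 fell and 2 did not pass, with changes from -0.70 to 2.17. Isg15 held 3 cores and Oas1a 2, and both rose by less than 0.5 on the log2 scale. Oasl2 (2.17), Cmpk2 (2.14) and Oasl1 (2.10) lacked the core in their windows and rose more than Rsad2 (1.87). Windows of Oas2, Parp9, Parp14, Mx1, Mx2, Dhx58, Ifi27, Zbp1, Rtp4 and Usp18 were not used here.

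The IFIT proteins bind viral RNA or the translation machinery, and all 4 rose, 3 of them by at least 2-fold. For this role and those below, the shares of all tested genes were 43.1% higher in MC38.T4 and 10.0% at least 2-fold higher. Ifit3 stood at 12.7, 12.2, 15.2, 18.5 and 13.7 FPKM in MC38.T4 replicates 1 to 5, against 1.17, 1.19, 1.28, 0.783 and 0.833 FPKM in MC38 replicates 1 to 5. Ifit1, which binds RNA caps that lack host methylation, stood at 13.4, 12.6, 13.6, 16.99 and 13.9 FPKM in MC38.T4 and 1.202, 1.08, 1.09, 1.21 and 1.06 FPKM in MC38. For both genes every MC38.T4 library was far above every MC38 library, and MC38.T4 replicate 4 was the highest. The change of Ifit3 was 2.91 (SE 0.11, limma adjusted p = 1.55e-11) and that of Ifit1 2.82 (SE 0.06, limma adjusted p = 7.83e-15). Ifit3b, the close copy of Ifit3, had 3.47, 3.23, 4.27, 4.31 and 3.88 FPKM in MC38.T4 and 0.092, 0, 0.0882, 0.131 and 0.0965 FPKM in MC38. Under 1 FPKM in every MC38 library, Ifit3b passed the filter only through MC38.T4 and had to differ. Its transcripts share 44.5% of their 50-base words with Ifit3 in GENCODE vM21, and Ifit3 shares 51.2% of its words with Ifit3b. How reads common to both were assigned is not given, so the split between Ifit3 and Ifit3b is uncertain. Ifit2, next to Ifit3 on chromosome 19, was already high in MC38 and moved little, with 13.95, 14.1, 15.2, 13.9 and 14.2 FPKM in MC38.T4 and 12.7, 12.2, 11.4, 11.2 and 11.4 FPKM in MC38. The lines did not overlap for Ifit2, but its change was only 0.26 (SE 0.04, limma adjusted p = 3.01e-05).

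The oligoadenylate synthetases make the second messenger that activates RNase L, and all 5 genes of the family and its relatives rose. Oasl2, which in mouse has both a synthetase and a ubiquitin-like part, had 17.2, 16.3, 19.2, 19.7 and 17.1 FPKM in MC38.T4 and 3.14, 2.93, 3.18, 3.05 and 3.65 FPKM in MC38. Its neighbour Oasl1, a catalytically inactive relative known in mouse to restrain translation of Irf7, had 4.84, 4.67, 4.85, 5.77 and 4.96 FPKM in MC38.T4 and 0.513, 0.3299, 0.491, 0.269 and 0.418 FPKM in MC38. Neither gene overlapped between the lines, and the changes were 2.17 (SE 0.06, limma adjusted p = 3.41e-14) for Oasl2 and 2.10 (SE 0.06, limma adjusted p = 1.14e-13) for Oasl1. Oasl1, and Oas2 below, were under 1 FPKM in every MC38 library, so they passed the filter only through MC38.T4 and had to differ. Of the synthetases proper, Oas2 averaged 5.12 ± 0.878 FPKM in MC38.T4 and 0.765 ± 0.0642 FPKM in MC38 (SD, n = 5 each). Oas3 averaged 6.58 ± 0.837 and 2.02 ± 0.154 FPKM in the same order. Oas1a rose least, to 6.34 ± 0.586 FPKM in MC38.T4 against 4.46 ± 0.585 FPKM in MC38, and 57.6% of its transcript words are shared with Oas1g, so its level is uncertain to that extent.

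All 3 cytosolic RNA sensors rose. Ddx58, which encodes RIG-I, the sensor of RNA with a triphosphate end, was the most abundant, with 57.99, 55.5, 59.2, 58.2 and 54.8 FPKM in MC38.T4 and 28.1, 24.1, 25.5, 24.1 and 25.04 FPKM in MC38. Dhx58 encodes LGP2, a helicase without signalling domains that tunes the other sensors, and had 6.03, 5.94, 6.79, 7.37 and 6.08 FPKM in MC38.T4 and 1.93, 2.06, 2.06, 1.95 and 2.22 FPKM in MC38. Both were higher in every MC38.T4 library, by 1.14 (SE 0.04, limma adjusted p = 1.41e-12) and 1.29 (SE 0.06, limma adjusted p = 9.37e-12). Ifih1, which encodes MDA5, the sensor of long double-stranded RNA, averaged 8.16 ± 0.662 FPKM in MC38.T4 and 4.72 ± 0.377 FPKM in MC38 (SD, n = 5 each).

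Of the other nucleic acid binders Zbp1 and Eif2ak2 rose and Adar did not pass. Zbp1, a sensor of Z-form nucleic acid that can start necroptosis, showed the largest change of the 38 genes, 3.00 (SE 0.07, limma adjusted p = 1.11e-14). It had 7.95, 7.73, 8.74, 10.4 and 8.91 FPKM in MC38.T4 and 0.236, 0.278, 0.2199, 0.267 and 0.0838 FPKM in MC38. Zbp1 was under 1 FPKM in every MC38 library, so it passed the filter only through MC38.T4 and had to differ. Eif2ak2 encodes PKR, the kinase that stops translation when it binds double-stranded RNA, and had 20.8, 20.3, 22.5, 20.9 and 21.01 FPKM in MC38.T4 and 18.9, 16.1, 14.96, 16.9 and 15.6 FPKM in MC38. Its lines did not overlap, but the change was modest at 0.34 (SE 0.05, limma adjusted p = 2.09e-05). Adar edits adenosine to inosine in double-stranded RNA and so keeps self RNA from the sensors. It had 19.8, 18.7, 18.4, 19.6 and 18.7 FPKM in MC38.T4 and 21.05, 17.9, 19.03, 18.1 and 18.1 FPKM in MC38, so the lines overlapped. The difference of Adar was 0.02 (SE 0.04, limma adjusted p = 0.738), and its sign was negative after rescaling to TPM, after setting equal medians or without MC38 replicate 2.

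Among the transcription factors Irf7 and Stat2 rose and Irf9 did not pass. Irf7, the factor that amplifies interferon production, had 3.97, 3.53, 3.69, 5.12 and 4.03 FPKM in MC38.T4 and 1.69, 0.923, 1.37, 1.29 and 1.24 FPKM in MC38, a change of 1.14 (SE 0.09, limma adjusted p = 1.81e-08). Stat2 had 6.76, 6.79, 8.01, 8.34 and 7.701 FPKM in MC38.T4 and 5.77, 6.17, 5.84, 5.67 and 6.33 FPKM in MC38. Irf9, the DNA-binding part of ISGF3, had 8.696, 7.92, 9.34, 9.75 and 8.98 FPKM in MC38.T4 and 8.42, 7.47, 8.42, 7.98 and 9.41 FPKM in MC38. For Irf7 and Stat2 all MC38.T4 libraries were above all MC38 libraries, whereas for Irf9 the lines overlapped. The change of Stat2 was 0.29 (SE 0.06, limma adjusted p = 0.000193) and that of Irf9 0.09 (SE 0.06, limma adjusted p = 0.168), and without MC38 replicate 5 Irf9 passed as higher (0.13, adjusted p = 0.0451).

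In the ISG15 system 3 of 4 genes rose and Trim25 fell. Isg15, a ubiquitin-like protein that is attached to other proteins, was abundant in both lines, with 54.2, 62.03, 65.3, 60.5 and 58.8 FPKM in MC38.T4 and 46.6, 49.6, 47.04, 41.6 and 49.8 FPKM in MC38. Usp18 removes ISG15 and also damps IFNAR2 signalling, and had 7.15, 8.04, 7.93, 10.4 and 7.96 FPKM in MC38.T4 and 4.03, 4.52, 4.46, 3.74 and 3.76 FPKM in MC38. Herc6, the main ISG15 ligase in mouse, had 9.89, 10.4, 10.9, 10.8 and 9.61 FPKM in MC38.T4 and 5.71, 5.53, 5.18, 5.41 and 5.09 FPKM in MC38. The MC38.T4 values were above all MC38 values for these 3 genes, by 0.35, 0.86 and 0.82 on the log2 scale (limma adjusted p at most 2.45e-05). Trim25, a ubiquitin ligase known for its part in RIG-I signalling, had 28.7, 28.4, 29.1, 32.3 and 28.3 FPKM in MC38.T4 and 53.3, 48.1, 45.7, 46.3 and 48.4 FPKM in MC38. All MC38.T4 libraries were lower, with a change of -0.70 (SE 0.05, limma adjusted p = 1.38e-09). The other enzymes of the pathway, from the lists of pathway genes, were also higher in MC38.T4. Uba7, the activating enzyme, had 1.23 ± 0.1904 FPKM in MC38.T4 and 0.116 ± 0.0349 FPKM in MC38 (SD, n = 5 each). It was under 1 FPKM in every MC38 library, so it passed the filter only through MC38.T4 and had to differ. Ube2l6, the conjugating enzyme, had 15.5 ± 0.627 and 4.03 ± 0.365 FPKM in the same order.

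Parp9, Dtx3l and Parp14, which lie next to each other on chromosome 16, all rose. PARP9 and its partner ligase DTX3L act together in ADP-ribosylation and ubiquitination, and PARP14 is a mono-ADP-ribosyltransferase. Parp9 had 30.6, 30.97, 31.5, 31.8 and 29.3 FPKM in MC38.T4 and 7.17, 8.01, 7.61, 7.04 and 7.598 FPKM in MC38. Dtx3l had 13.6, 13.9, 14.6, 14.3 and 13.5 FPKM in MC38.T4 and 4.18, 3.83, 3.804, 3.89 and 3.71 FPKM in MC38. The libraries of a line were close together and the lines far apart, with changes of 1.91 (SE 0.04, limma adjusted p = 2.72e-15) and 1.62 (SE 0.04, limma adjusted p = 1.53e-14). Parp14 averaged 7.73 ± 0.559 FPKM in MC38.T4 and 2.45 ± 0.159 FPKM in MC38 (SD, n = 5 each).

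Of 7 antiviral effectors 6 rose and Bst2 fell. Cmpk2, a mitochondrial nucleotide kinase, had 6.24, 6.68, 6.497, 6.64 and 5.86 FPKM in MC38.T4 and 0.884, 0.588, 0.595, 0.669 and 0.649 FPKM in MC38. Its neighbour on chromosome 12, Rsad2, encodes viperin, which makes a chain-terminating nucleotide, and had 7.602, 8.02, 8.78, 11.3 and 8.56 FPKM in MC38.T4 and 2.06, 1.45, 1.75, 1.63 and 1.4999 FPKM in MC38. Both separated the lines fully, with changes of 2.14 (SE 0.06, limma adjusted p = 2.6e-14) and 1.87 (SE 0.09, limma adjusted p = 6.22e-11). Cmpk2, and Mx1 below, were under 1 FPKM in every MC38 library, so they passed the filter only through MC38.T4 and had to differ. Samd9l, a poxvirus restriction factor, averaged 9.796 ± 0.717 FPKM in MC38.T4 and 2.31 ± 0.176 FPKM in MC38, and the exonuclease gene Isg20 10.9 ± 0.362 and 6.64 ± 0.2798 FPKM (SD, n = 5 each). The GTPase gene Mx1, which is disrupted in most laboratory mouse strains, had 1.47, 1.69, 1.75, 1.81 and 1.62 FPKM in MC38.T4 and 0.0866, 0.0914, 0, 0.0314 and 0 FPKM in MC38. Its relative Mx2 stayed low, with 1.41, 1.26, 1.38, 1.998 and 1.27 FPKM in MC38.T4 and 1.29, 0.789, 1.15, 0.7902 and 1.24 FPKM in MC38. The lines overlapped for Mx2, its change was 0.26 (SE 0.09, limma adjusted p = 0.0147), and it did not pass after quantile normalization (0.14, adjusted p = 0.129). Bst2 encodes tetherin, which holds budding virus on the cell surface, and was the most abundant of the 38 genes in both lines. It had 135, 137, 143, 148 and 136 FPKM in MC38.T4 and 158, 159.6, 157, 162 and 162 FPKM in MC38, lower in every MC38.T4 library, with a small change of -0.19 (SE 0.03, limma adjusted p = 6.93e-05).

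The remaining 6 genes all rose. Rtp4, which hinders flavivirus RNA amplification, had 18.4, 17.9, 19.9, 23.1 and 16.2 FPKM in MC38.T4 and 3.56, 3.75, 4.19, 3.65 and 4.32 FPKM in MC38. Ifi44, an interferon-induced gene of less defined role, had 8.19, 9.02, 10.03, 11.2 and 8.72 FPKM in MC38.T4 and 2.57, 2.24, 2.69, 2.03 and 2.43 FPKM in MC38. Both were higher in every MC38.T4 library, by 2.03 (SE 0.08, limma adjusted p = 5.61e-12) and 1.62 (SE 0.07, limma adjusted p = 2.4e-11). Lgals3bp, which encodes a secreted glycoprotein that binds galectins, averaged 65.4 ± 3.09 FPKM in MC38.T4 and 25.5 ± 1.29 FPKM in MC38 (SD, n = 5 each). Ifi35, a partner of the protein NMI, averaged 22.1 ± 2.12 FPKM in MC38.T4 and 11.4 ± 0.702 FPKM in MC38. Small rises were those of Ifi27, a mitochondrial and nuclear membrane protein gene, with 66.01, 72.3, 69.2, 70.8 and 66.7 FPKM in MC38.T4 and 48.1, 53.4, 52.2, 49.7 and 52.8 FPKM in MC38, and of the apoptosis-related gene Xaf1, with 21.5 ± 2.395 FPKM in MC38.T4 and 17.4 ± 0.741 FPKM in MC38. Their changes were 0.42 and 0.29 on the log2 scale.

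**Figure D2:**
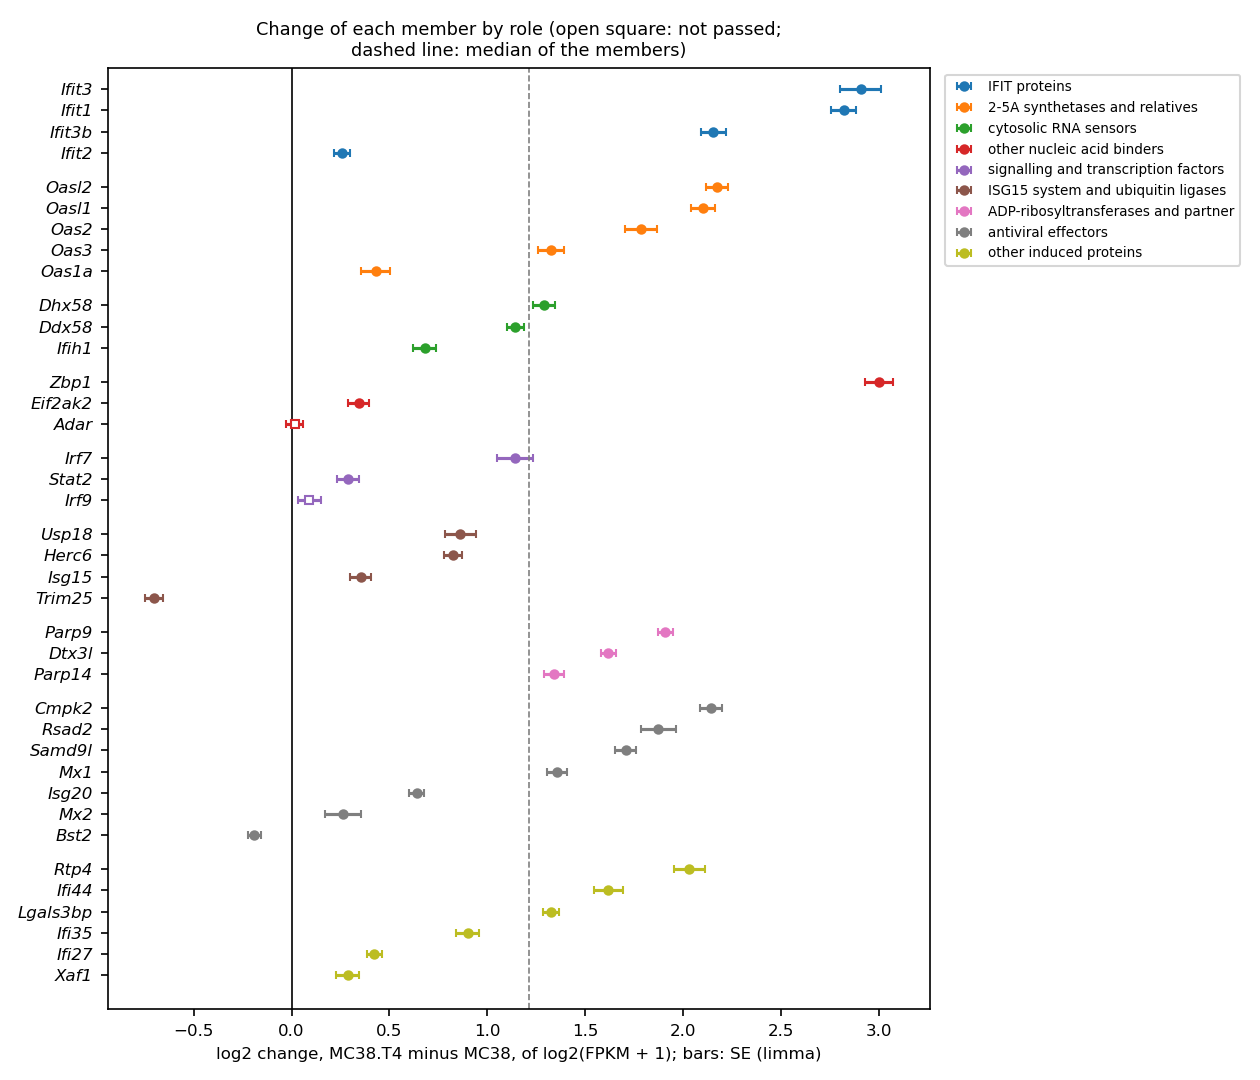
Change of each gene on the x axis, as MC38.T4 minus MC38 of log2(FPKM + 1) from limma with its standard error (n = 5 libraries each), grouped by role, with a dashed line at the median of the 38 genes (1.21). Zbp1 (3.00), Ifit3 (2.91) and Ifit1 (2.82) lie farthest to the right, Trim25 and Bst2 lie left of 0, and the open squares mark Adar and Irf9, which did not pass.

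Changes were larger for genes that were low in the parent. The 6 genes with an MC38 mean under 1 FPKM changed by 1.36 to 3.00, the 21 genes between 1 and 10 FPKM had a median change of 1.32, and the 11 genes at 10 FPKM or more had a median change of 0.34. Over all tested genes the medians in the same bands of MC38 level were 1.02, 0.10 and -0.11, so the order by level is shared with genes outside the list, and in the lowest band the filter itself selects genes that are higher in MC38.T4. In the middle band 20 of 21 genes rose (95.2%), against 48.0% of all tested genes there, and in the highest band 8 of 11 rose (72.7%), against 36.0%. Both genes that fell, Trim25 and Bst2, were in the highest band.

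**Figure D3:**
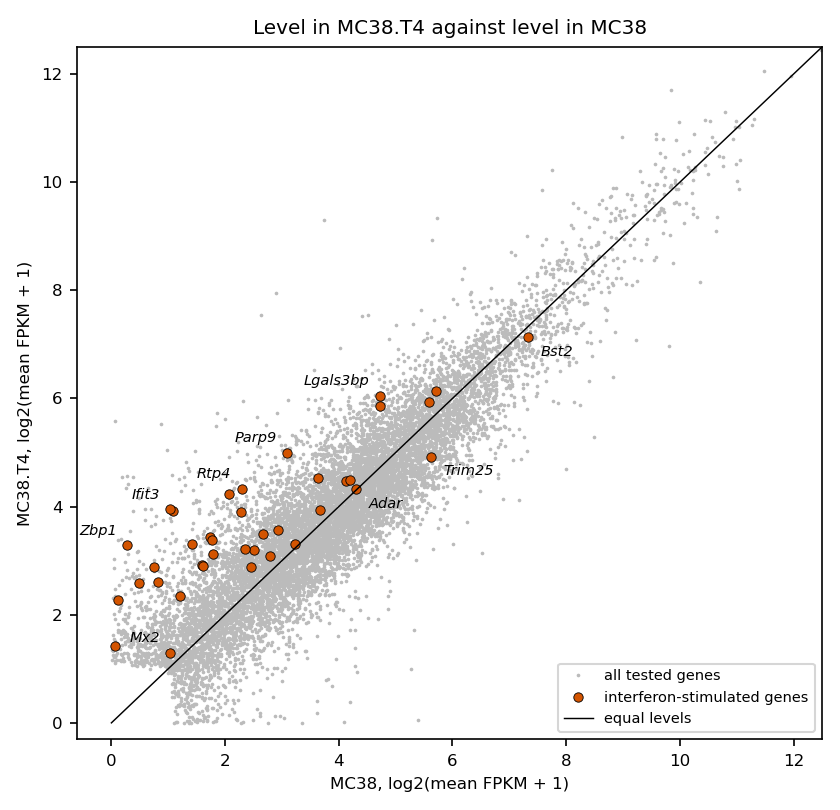
Mean level of each gene in MC38.T4 (y axis) against MC38 (x axis), both as log2(mean FPKM + 1), with all 11110 tested genes in grey, the 38 interferon-stimulated genes in orange and a line at equal levels. The orange points stand highest above the line at low MC38 levels, and Trim25 and Bst2 lie below it.

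Libraries of MC38.T4 differed among themselves in these genes, and MC38.T4 replicate 4 stood highest. Of the 38 genes 26 (68.4%) had their highest MC38.T4 value in replicate 4 and 9 in replicate 3, whereas 22.3% of all tested genes were highest in replicate 4. The mean of log2(FPKM + 1) over the 38 genes was 3.92 in MC38.T4 replicate 4 and 3.81 in replicate 3, whereas the remaining MC38.T4 libraries lay between 3.70 and 3.73. MC38.T4 replicate 4 exceeded the mean of the other MC38.T4 libraries by at least 10% for 24 of the 38 genes (63.2%), against 11.6% of all tested genes. The excess was 37.1% for both Rsad2 and Ifit3, 34.4% for both Irf7 and Usp18 and 50.3% for Mx2, while Ifit2, Eif2ak2 and Samd9l were lower there than the mean of the others. Among 32 tested interferon-stimulated genes outside the 38, 17 (53.1%) were also highest in MC38.T4 replicate 4. The median SD within MC38.T4 was 0.103 on the log2 scale for the 38 genes and 0.0629 for all tested genes, and within MC38 it was 0.0832 and 0.0749. In MC38 the list means lay between 2.56 and 2.66, with replicate 1 the highest, where 18 of the 38 genes (47.4%) had their highest MC38 value, against 31.7% of all tested genes. MC38.T4 replicate 4 also had the highest Malat1 (125 FPKM, with 53.1 to 75.9 FPKM in its sister libraries), the largest share of mitochondrial transcripts (6.85%, against 4.87% to 5.74%) and the lowest relative depth (0.874, against 0.885 to 1.14). MC38 replicate 1 had the lowest FPKM sum of its line (442183, against 466802 to 477015). Its share of mitochondrial transcripts was also the smallest there (3.76%, against 5.00% to 6.05%). The part of RNA quality and depth in this spread was not tested. Without MC38.T4 replicate 4 and MC38 replicate 1 together, a choice made after seeing the data, the counts were again 34 higher, 2 lower and 21 at least 2-fold higher.

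**Figure D4:**
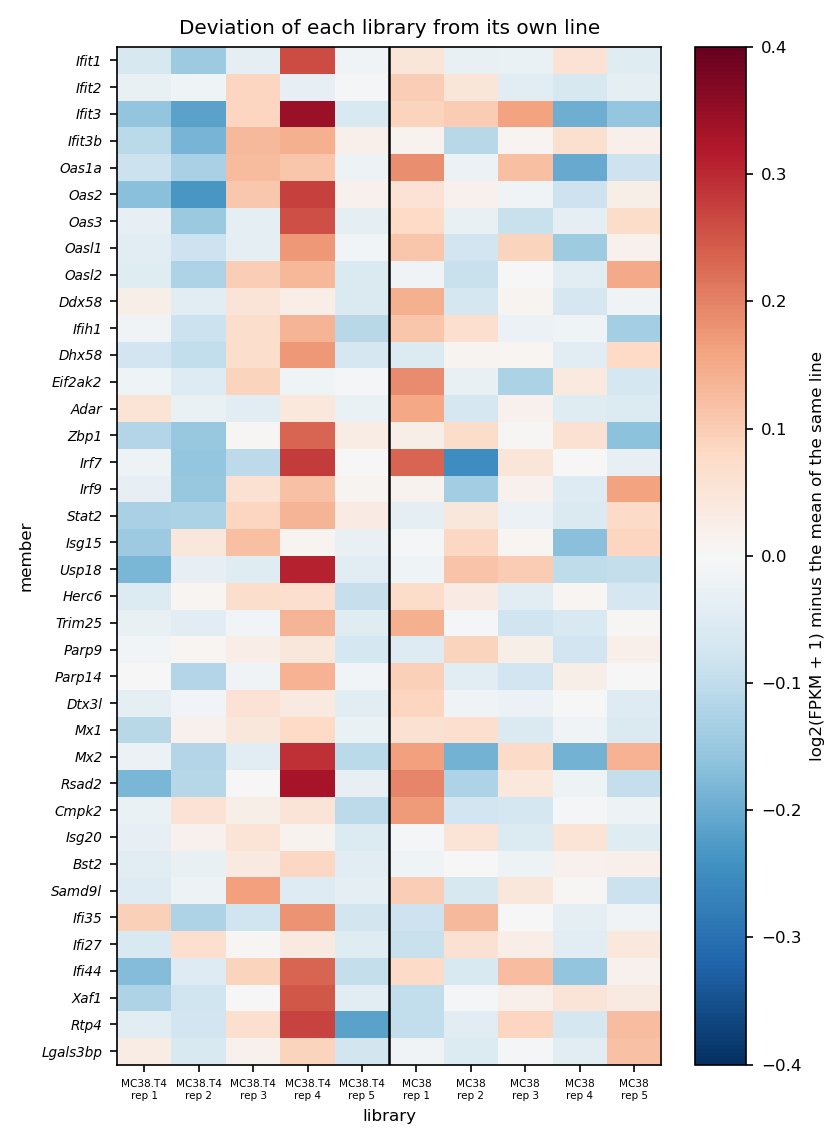
Deviation of each library (columns, MC38.T4 left of the black line, MC38 right of it) from the mean of its own line in log2(FPKM + 1), for the 38 genes (rows). The MC38.T4 replicate 4 column is red in most rows, with 26 of 38 genes at their highest there, and the MC38 replicate 1 column is red in many rows, with 18 of 38 at their highest there.

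The interferon genes themselves were low or listed at 0. Of 18 type I interferon genes in the list none reached the filter. Ifnb1, encoding interferon beta, was listed at 0.0316, 0.0606, 0.0332, 0.0396 and 0.0782 FPKM in MC38.T4 replicates 1 to 5 and at 0 in all 5 MC38 libraries. These values are too low for a test here, and 9 of the 18 genes were listed at 0 everywhere. Ifnz had the highest level, 0.1502, 0.299, 0.3599, 0.548 and 0.434 FPKM in MC38.T4 and 0.976, 0.902, 1.103, 0.893 and 1.29 FPKM in MC38, and was below MC38 in every MC38.T4 library. Of the type II and III interferon genes Ifng was listed above 0 in 1 library only, at 0.0188 FPKM, and Ifnl2 and Ifnl3 at 0 in all.

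Of 8 tested receptor and kinase genes 3 (37.5%) rose and 5 fell, whereas 43.1% of all tested genes were higher and 42.9% lower. The receptor subunit gene Ifnar2 averaged 23.5 ± 1.41 FPKM in MC38.T4 and 16.6 ± 0.7697 FPKM in MC38 (SD, n = 5 each), while Ifnar1 averaged 22.4 ± 0.851 and 28.6 ± 0.405 FPKM in the same order. The kinase genes Tyk2 and Jak1 rose by 0.59 and 0.27 on the log2 scale. Jak2, a kinase of the interferon gamma receptor, fell to 17.6 ± 0.247 FPKM in MC38.T4, against 33.6 ± 2.07 FPKM in MC38, and Il10rb (change -0.81) and Ifngr1 (-0.42) fell too. Of 5 tested transcription factor genes outside the 38, 4 rose and none fell. Irf1 was among them, with 65.1 ± 3.27 FPKM in MC38.T4 and 47.8 ± 2.67 FPKM in MC38, as was Irf2, with a change of 0.27. The rise of Irf3 (change 0.15, adjusted p = 0.0435) did not hold under most alternatives, with an adjusted p of 0.0988 on TPM. It was also lost without MC38.T4 replicate 1, 2 or 4 (adjusted p = 0.0615, 0.107 and 0.0916) and without MC38 replicate 1, 3 or 4 (0.107, 0.0953 and 0.0723).

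Of 8 tested sensor and adaptor genes 4 rose and 3 fell, also near the 43.1% and 42.9% of all tested genes. Mavs, the mitochondrial adaptor of RIG-I and MDA5, rose by 0.69, the kinase gene Ikbke by 0.73 and the TLR3 adaptor gene Ticam1 by 0.44 on the log2 scale. Ikbke was at 0.315 to 0.495 FPKM in MC38, so it passed the filter only through MC38.T4. The DNA sensor gene Cgas (-0.23), the kinase gene Tbk1 (-0.20) and the adaptor gene Myd88 (-0.18) fell. Among 5 negative regulators 3 rose and 2 fell. Socs1, an inhibitor of JAK kinases, averaged 4.33 ± 0.129 FPKM in MC38.T4 and 1.802 ± 0.201 FPKM in MC38 (SD, n = 5 each), with Socs3 (0.55) and Ptpn2 (0.29) also higher, and Ptpn11 (-0.25) and Pias1 (-0.14) lower.

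Interferon-stimulated genes outside the 38 mostly rose. Of 41 listed genes 32 were tested, and 27 rose, 3 fell and 2 did not pass, with a median change of 0.78. Ccl5, Sp110, Slfn2, Oas1b, Oas1c, Oas1g, Ifi204 and Ddx60, all among the rises, had an MC38 mean under 1 FPKM. Of these, Ccl5, Sp110, Slfn2, Oas1b and Oas1c were under 1 FPKM in every MC38 library. They passed the filter only through MC38.T4 and had to differ. Oas1g, Ifi204 and Ddx60 passed it mainly through MC38.T4, which favours a rise. The chemokine gene Ccl5 averaged 13.2 ± 1.52 FPKM in MC38.T4 and 0.729 ± 0.195 FPKM in MC38, the nuclear body gene Sp110 8.11 ± 0.893 and 0.894 ± 0.09296 FPKM, and the Schlafen gene Slfn2 5.67 ± 0.638 and 0.397 ± 0.0863 FPKM (SD, n = 5 each). Those that fell were Tor3a, with 16.7 ± 1.66 FPKM in MC38.T4 and 42.4 ± 0.359 FPKM in MC38, Shisa5 (-0.44) and Rnf213 (-0.32). Over all pathway lists 60 genes were tested, of which 43 rose, 13 fell and 4 did not pass (43.1% and 42.9% of all tested genes rose and fell). The rises include the genes with an MC38 mean under 1 FPKM named above, and Uba7 and Ikbke, so the filter favours or fixes part of this count.

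**Figure D5:**
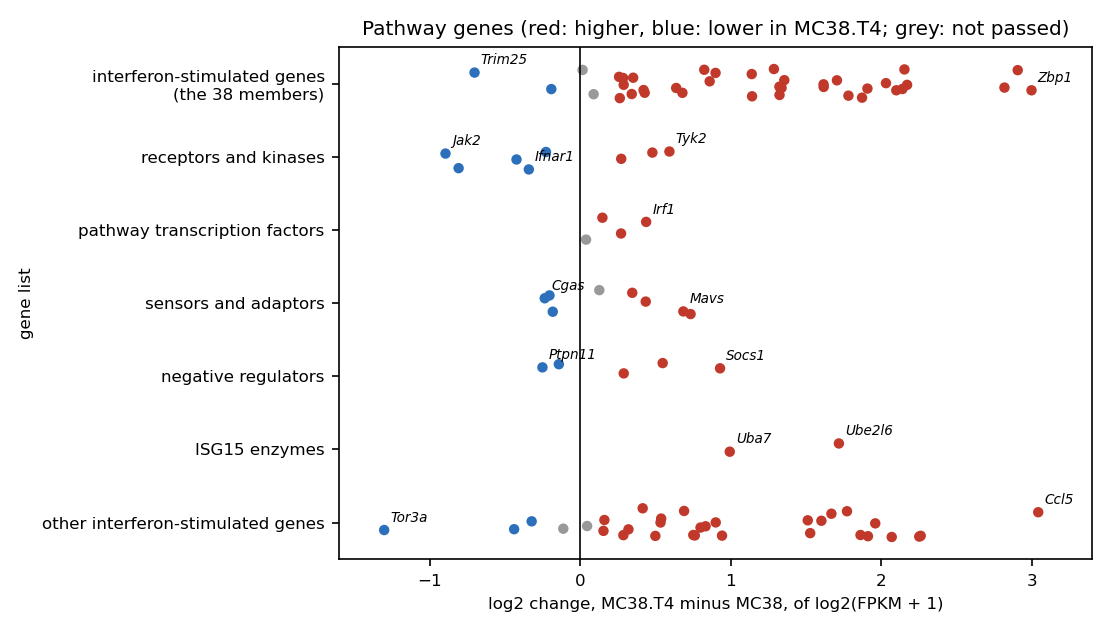
Change of the 38 genes and of each pathway list with tested genes on the x axis, as MC38.T4 minus MC38 of log2(FPKM + 1), 1 point per gene with 1 transcription factor gene not shown, red where higher, blue where lower in MC38.T4 and grey where the test was not passed. Receptors and kinases lie on both sides of 0 between -0.89 (Jak2) and 0.59 (Tyk2).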

How the data were processed

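PolyA-selected RNA was made into TruSeq stranded libraries, per the labels' protocols. The authors deposited FPKM per gene symbol, 1 column per library. The submitters' processing notes name the build GRCm39 and the tool DESeq2, without a role. Which aligner, counting program and annotation served was not given in the sources used here. FPKM keeps no read counts, so no count test or counting interval was possible, and a few abundant genes can lower all others. Each column was matched to a sample by the library name in the labels.

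Genes with at least 1 FPKM in at least 5 of 10 libraries were tested with limma 3.58.1 in R 4.3.3 on log2(FPKM + 1), a scale that understates changes of low genes. The fit had a group term, trend and robust moderation and two-sided Benjamini-Hochberg adjustment over 11110 genes, and was tested on simulated data. The members, gene lists and roles were chosen with earlier results of these data known. Every library's value is given for members that fell or did not pass, the largest rises per role and the most abundant member per role, and pathway lists by their largest changes. Ifnar1, Ifnz and Irf3 were named after their values were seen. Values of 1 pathway gene are counted but not reported here. Alternatives were a pseudocount of 0.1, other filters, TPM, quantile and median scaling, other moderation or weights, a replicate block, a fold threshold of 1.5 and leaving out libraries. Promoter sequences are from RefSeq (GRCm38.p6) and transcript words from GENCODE vM21, both of another build than the authors'. Python 3.11.15, pandas 2.3.3, NumPy 2.4.6 and matplotlib 3.10.9 were used.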

Additional observations from a re-analysis of the deposited data

Results flagged for a closer look

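Among 76 sets of 5 libraries (38 genes in each line), 9 held a library whose gap to its nearest neighbour exceeded 0.710 of the range of the set, where chance gives about 5% of sets. Of these 9, 5 were MC38.T4 replicate 4. It held 8.01 FPKM of Oas3 (the other MC38.T4 libraries 5.80 to 6.38), 5.77 FPKM of Oasl1 (4.67 to 4.96), 10.4 FPKM of Usp18 (7.15 to 8.04), 32.3 FPKM of Trim25 (28.3 to 29.1) and 2.00 FPKM of Mx2 (1.26 to 1.41). MC38.T4 replicate 3 held 15.2 FPKM of Ifit2 (13.9 to 14.2 in the others) and 11.1 FPKM of Samd9l (9.40 to 9.63). In MC38, replicate 1 held 0.884 FPKM of Cmpk2 (0.588 to 0.669 in the others) and replicate 5 held 27.7 FPKM of Lgals3bp (24.5 to 25.4).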

How the results depend on the processing

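Over 788 combinations of a member and an alternative, 772 kept their direction and their side of the threshold, and 25 of the 38 genes did so under each of the 21 alternatives that tested them (the requirement of a mean of at least 5 FPKM left 10 untested). The 34 rises and 2 falls were also counted without a filter, with TPM, with a pseudocount of 0.1 and with a replicate block (34 and 2). Same-numbered libraries of the lines deviated with correlations from -0.129 to 0.142, so no shared deviation was seen. Whether they were prepared together cannot be told from these values. The block gave 9534 called genes in all, against 9555. Leaving out each library in turn gave 34 to 35 rises, 2 falls, 21 rises of at least 2-fold and 9408 to 9624 calls over all genes. The median change of the members moved to 1.47 with a pseudocount of 0.1, 1.31 with TPM and 0.84 where a mean of at least 5 FPKM was required, which tested 28 members and left 12 rises of at least 2-fold and 28 pathway rises. Against a fold of 1.5, 3474 genes passed in all, 24 members rose and 1 fell, and 23 pathway genes rose and 3 fell, as that test asks for larger changes. Adar, not called, reversed to -0.030 with TPM and -0.012 with equal medians, and ranged from -0.00045 to 0.055 over the fits without 1 library, and the cause was not tested. FPKM without read totals limits what can be said of Mx1, Ifit3b and Ifnb1 at their low parental levels.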

Other observations

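Several interferon-stimulated genes below the expression filter were also apart between the lines, which is given without a test. Ifi27l2a, a mouse gene related to Ifi27, was listed at 0.819, 0.834, 1.13, 1.73 and 1.203 FPKM in MC38.T4 and 0, 0.0598, 0, 0 and 0 FPKM in MC38. Ifi205, of the interferon-inducible family that binds DNA, averaged 0.991 ± 0.205 FPKM in MC38.T4 and 0.0768 ± 0.0276 FPKM in MC38 (SD, n = 5 each). Ifitm1, a membrane protein gene that hinders virus entry, stood at 0.515, 0.525, 0.304, 0.689 and 0.419 FPKM in MC38.T4 and 0, 0, 0, 0.051 and 0.0452 FPKM in MC38. Its relative Ifitm3 was among the tested genes, with 215 ± 12.99 FPKM in MC38.T4 and 66.8 ± 2.21 FPKM in MC38 (SD, n = 5 each). Ifi44l, by contrast, was listed above 0 in 1 library only. These genes were chosen after their values were seen.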
